A study of Mus musculus with 12 samples.

Results

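Transcripts of 31 genes for the assembly and the lipid chemistry of peroxisomes were followed in interscapular brown fat, the heat-producing depot between the shoulder blades, of mice kept at 30, 22 or 6 °C. The genes were taken by symbol from a fixed list of 13 peroxins and 18 enzymes and transporters. All 31 were found among the 38924 genes of the count table, and all 31 were among the 14870 genes with enough counts to be tested. RNA came from 12 wild-type C57BL/6J mice, which were placed at their temperature at 10 weeks of age and were 14 weeks old after 4 weeks there, with 4 mice per temperature. None of the groups carried a transgene, deletion or drug according to the labels, and ambient temperature is the difference the labels give. At 30 °C, labelled thermoneutral, the libraries are called mice 1, 2, A and B, because a pair of columns carried the letter of that group but a number found on none of its titles. At 22 °C and at 6 °C they are called mice 1 to 4. Values per mouse are given in these orders.

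Peroxisomes are small organelles bounded by a single membrane. Peroxins build them: some insert membrane proteins, others carry enzymes from the cytosol through the membrane, recycle the receptors that carried them, or drive division. Inside, very long, branched and dicarboxylic fatty acids are shortened by a β-oxidation pathway whose first step gives hydrogen peroxide and heat instead of feeding the respiratory chain. Peroxisomes also remove the methyl branch of phytanic acid and start the synthesis of ether lipids such as plasmalogens. Brown fat is rich in peroxisomes, and cold has long been known to increase their number there.

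The deepest library, 22 °C mouse 3, held 86438386 counts and the others 18290162 to 32513051, so that 1 CPM (reads scaled to a common library size) stood for at least 18.3 counts before TMM scaling. Levels are CPM scaled by trimmed means (TMM) and given as mean ± SD over n = 4 mice. A gene is said to have risen or fallen where edgeR's quasi-likelihood test gave a Benjamini-Hochberg adjusted p under 0.05 over all tested genes. The 3 pairwise comparisons share their groups, so their counts are not independent of each other. Brown adipocyte markers (10 genes) were abundant in every library, and their sum was higher at each colder temperature. It ran from 12050 to 13920 CPM at 30 °C, from 18610 to 21190 at 22 °C and from 24810 to 26980 at 6 °C. At 6 °C against 30 °C 7 of the 10 rose and Adipoq fell, against 25.3% and 31.5% of all tested genes. Their median log2 fold change was 0.46 there and 0.50 at 22 °C against 30 °C, beside −0.11 and −0.02 for all tested genes. Summed macrophage markers (8 genes) ran from 463.7 to 1549 CPM at 30 °C, with mice A and B highest at 1253 and 1549, from 115.6 to 170.5 at 22 °C and from 206.9 to 436.5 at 6 °C. At 6 °C against 30 °C, 6 of 8 macrophage, 5 of 5 fibroblast, 4 of 5 endothelial and 3 of 3 tested T cell markers fell. Of all tested genes 31.5% fell in this comparison. None of these 4 lists had a member that rose, and no marker tested was at 0 in any library. The 8 skeletal muscle markers had adjusted p-values of 0.2 to 0.469, and their sum ran from 6.476 CPM in 6 °C mouse 3 to 3735 CPM in 30 °C mouse 1. The part of these other cells, or of the share of adipocytes, in the results below was not tested. In whole tissue fewer cells of a type and less RNA per cell cannot be told apart.

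The DNA ahead of a RefSeq start of 4 members is shown because these genes carry the contrasts described below. They are the neighbouring thiolase genes Acaa1a and Acaa1b, which moved apart at 6 °C, and Pex13 and Pex16, peroxins that rose at both steps of cold. The sequences are from RefSeq, build GRCm38.p6, and hold the 250 bases before the annotated start, 5′ to 3′ on the strand of the gene. The gene spans given further below are from GENCODE. By those spans the Acaa1a window lies inside the gene (119339676 to 119350299). The Pex13 window overlaps the upstream end of its gene (23646479 to 23665959). Capitals mark CCAAT, the CCAAT box, in either orientation (ATTGG is its reverse complement) in Acaa1a, Acaa1b and Pex16, and TGACGTCA, the cyclic AMP response element, in Pex13. The windows are chr9:119341044-119341293 on the plus strand for Acaa1a, chr9:119157094-119157343 on the minus strand for Acaa1b, chr11:23665884-23666133 on the minus strand for Pex13 and chr2:92374426-92374675 on the plus strand for Pex16, where the annotation holds a second start without a match shown.
Acaa1a: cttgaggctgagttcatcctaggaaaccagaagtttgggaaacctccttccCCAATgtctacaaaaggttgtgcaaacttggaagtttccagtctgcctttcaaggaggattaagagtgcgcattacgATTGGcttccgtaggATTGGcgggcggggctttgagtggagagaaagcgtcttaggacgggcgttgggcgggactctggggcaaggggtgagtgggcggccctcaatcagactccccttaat
Acaa1b: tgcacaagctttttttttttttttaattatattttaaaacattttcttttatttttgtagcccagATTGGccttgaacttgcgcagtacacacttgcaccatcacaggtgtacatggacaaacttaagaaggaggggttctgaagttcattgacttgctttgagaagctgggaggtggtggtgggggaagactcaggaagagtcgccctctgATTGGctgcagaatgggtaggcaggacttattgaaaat
Pex13: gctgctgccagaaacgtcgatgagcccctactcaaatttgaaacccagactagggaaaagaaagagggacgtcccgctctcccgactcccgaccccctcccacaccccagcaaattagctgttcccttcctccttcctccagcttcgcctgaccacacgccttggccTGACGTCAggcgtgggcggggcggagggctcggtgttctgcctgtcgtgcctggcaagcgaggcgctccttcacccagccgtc
Pex16: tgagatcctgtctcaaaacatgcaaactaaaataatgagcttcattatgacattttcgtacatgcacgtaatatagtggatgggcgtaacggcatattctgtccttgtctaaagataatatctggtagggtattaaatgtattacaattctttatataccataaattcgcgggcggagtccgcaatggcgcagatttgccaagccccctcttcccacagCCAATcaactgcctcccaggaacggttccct

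Windows of 300 bases, from 250 before to 50 after a start, were at hand for 25 of the 31 members. CCAAT lay in at least 1 window of 12 members (Acaa1a, Acaa1b, Acox2, Agps, Crot, Ehhadh, Far1, Hacl1, Pecr, Pex16, Pex5 and Pex7) and in 37.4% of the 32851 windows of all genes. TGACGTCA lay in windows of Pex11g and Pex13 and in 1.79% of all windows. AGGTCA, the core bound by nuclear receptors, lay in windows of Pex11g, Phyh and Scp2 and in 16.3% of all windows. A direct repeat of AGGTCA with 1 base (N) between, the element that PPAR and RXR pairs bind, lay in 0 members and in 0.0396% of all windows. Both strands were searched, and every direct repeat also counts as a match of AGGTCA. The member figures count genes with a match in any of their windows, 30 in all, while the shares are per window. The figures and the shares are thus not in the same unit. These are matches of letters in short windows, and they describe neither bound factors nor distant elements.

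Between 30 °C and 6 °C, 20 of the 31 genes rose, 4 fell and 7 did not pass the test. Across all tested genes 25.3% rose and 31.5% fell in this comparison, and the median log2 fold change was 0.62 for the 31 genes against −0.11 for all tested genes. Of the peroxins 8 of 13 rose and 0 fell by edgeR's test (1, Pex10, was lower at an unadjusted p under 0.05, and 0 fell by DESeq2), with Pex16 highest at a log2 fold change of 1.45. Of the enzymes and transporters 12 of 18 rose and 4 fell, over a wider range, from Abcd2 at −1.27 to Acox2 at 2.76. The ranges of the 4 mice at each of these temperatures did not overlap for 18 genes that were higher at 6 °C and 3 that were lower. Among all tested genes 24.1% were higher and 27.4% lower without overlap. With total counts in place of TMM the median of all tested genes moved by −0.317, and 16 members rose and 7 fell. Among all tested genes 1939 then rose and 7888 fell, in place of 3767 and 4677.

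From 30 °C to 22 °C, 22 genes rose and 1 fell, against 21.8% and 22.8% of all tested genes. Their median log2 fold change was 0.54, beside −0.02 for all tested genes. With the peroxins 11 of 13 rose, and with the enzymes 11 of 18 rose while Far1 fell. From 22 °C to 6 °C, 13 rose and 6 fell, against 16.9% and 17.4% of all tested genes, with a median of 0.17 beside −0.03. Here 5 peroxins rose and 2 fell, and 8 enzymes and transporters rose and 4 fell. With total counts in place of TMM the median of all tested genes moved by −0.261 at the first step and by −0.056 at the second. The members called became 15 rising and 4 falling at the first step, beside 1419 and 6224 of all tested genes. At the second step they became 10 rising and 9 falling, beside 1996 and 3088 of all tested genes.

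A fit left out 22 °C mouse 3 and 30 °C mice A and B together, a choice made after the data were seen. At 6 °C against 30 °C 19 members then rose and 4 fell, beside 3333 and 3458 of all tested genes. At 22 °C against 30 °C 17 rose and 1 fell, beside 2293 and 2253. At 6 °C against 22 °C 13 rose and 7 fell, beside 2579 and 2328. Of the calls on a single step, 6 of those made at 22 °C against 30 °C did not pass without mice A and B alone: Pex2, Pex10, Pex11g, Crot, Pecr and Gnpat. Their log2 fold changes were then 0.25, 0.22, 0.28, 0.19, 0.23 and 0.15, and all 6 were positive as before. In the 6 °C against 22 °C comparison the count of members called was 12 without 22 °C mouse 4. Among all tested genes 4162 were then called, in place of 5091.

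**Figure D1:**
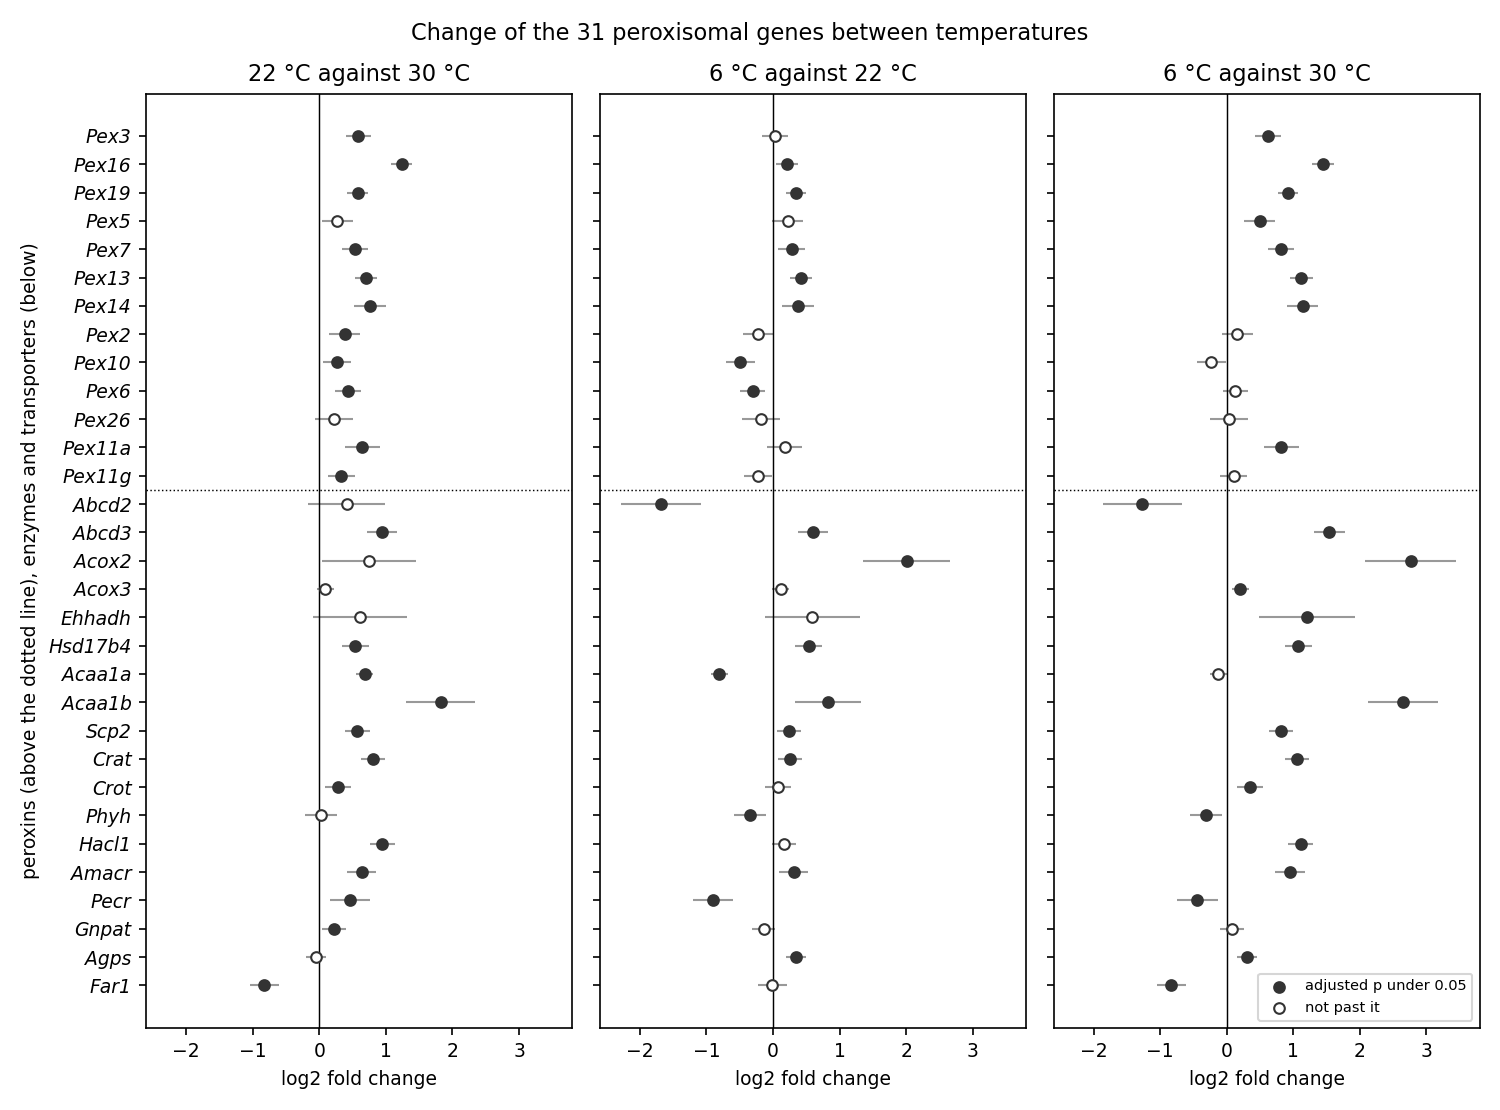
Log2 fold change of each of the 31 genes (points) with its 95% interval (lines) at 22 °C against 30 °C, 6 °C against 22 °C and 6 °C against 30 °C, with peroxins above the dotted line and filled points where the adjusted p was under 0.05. At 22 °C against 30 °C only Far1 is a filled point left of 0, while at 6 °C against 22 °C 13 filled points lie to the right and 6 to the left.

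The change differed between the steps for 13 of the 31 genes by edgeR's test of the difference of steps, in which the log2 value of the warmer step (30 to 22 °C) is subtracted from that of the colder one (22 to 6 °C). It was below 0 for 11 genes and above 0 for 2, against 15% and 14.3% of all tested genes. The peroxins among them were Pex2, Pex3, Pex6, Pex10, Pex11g and Pex16, all with the smaller or negative change at the colder step. Among the enzymes and transporters it was below 0 for Acaa1a, Crat, Abcd2, Pecr and Hacl1 and above 0 for Agps and Far1. With total counts only, 7 were below 0 and 2 above, beside 1275 and 3007 of all tested genes. Without mice A and B, Pex2 (−0.45, adjusted p = 0.0735), Pex3 (−0.50, adjusted p = 0.0547) and Pex11g (−0.49, adjusted p = 0.0608) did not pass. Leaving out a single library ended the call of Pex2 for 2 libraries, of Pex11g for 1 (22 °C mouse 1) and of Agps for 4.

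By direction at the 2 steps, 11 members rose at both: Pex7, Pex13, Pex14, Pex16, Pex19, Hsd17b4, Acaa1b, Scp2, Crat, Abcd3 and Amacr. That pattern held for 5.31% of all tested genes. For 5 of the 11 (Pex7, Pex16, Scp2, Crat and Amacr) the call at the colder step was lost when any 1 of 4 to 8 libraries was left out. A rise at 22 °C followed by a fall at 6 °C was met in 4 members, Pex6, Pex10, Acaa1a and Pecr, and in 4.1% of all tested genes. Another 7 rose at 22 °C and did not pass at the colder step: Pex2, Pex3, Pex11a, Pex11g, Crot, Hacl1 and Gnpat. The share of all tested genes with that pattern was not computed, and a step that did not pass is not shown to be flat. For Crot the call at the first step was lost when any 1 of 3 libraries was left out, and for Gnpat any 1 of 7.

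**Figure D2:**
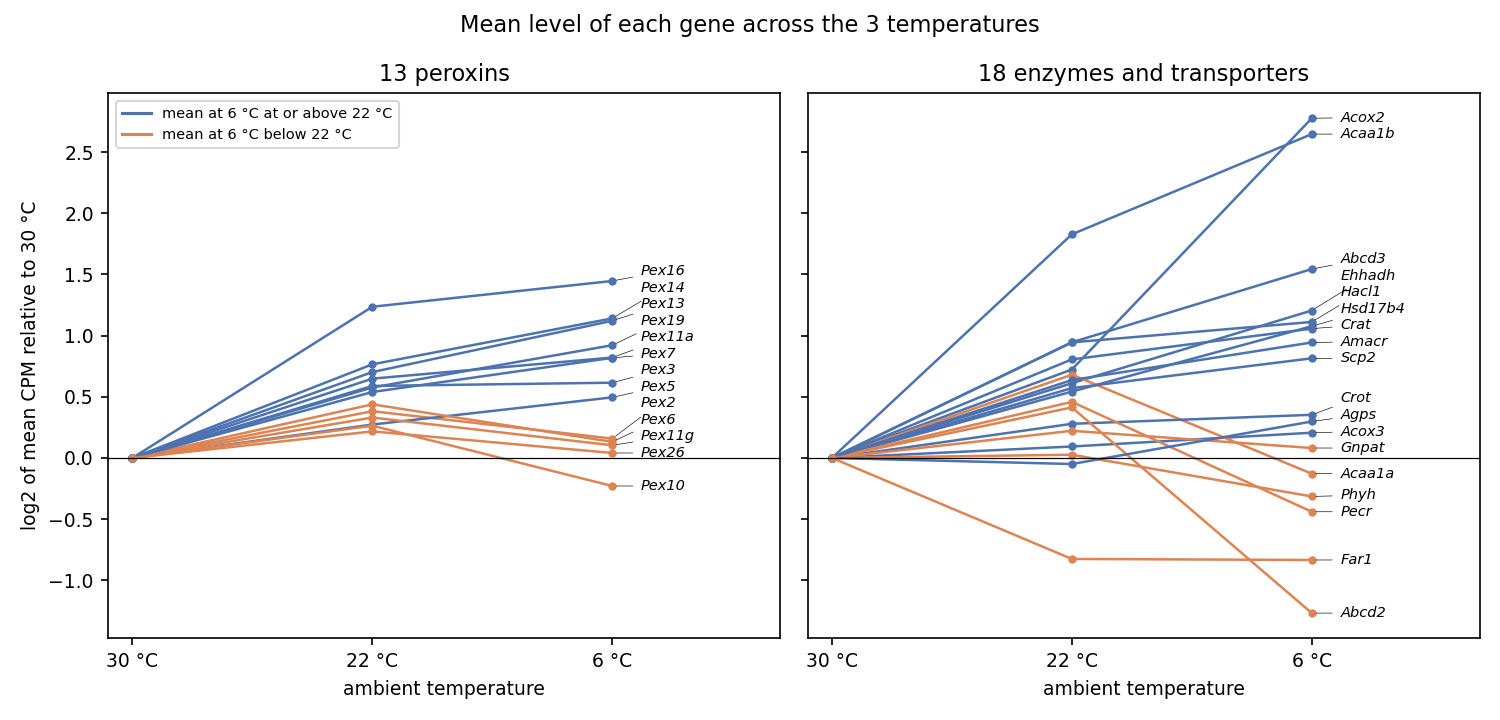
Mean level of each gene at 22 °C and 6 °C relative to 30 °C (log2 of the ratio of mean CPM), peroxins on the left and enzymes and transporters on the right, with lines in orange where the mean at 6 °C was below that at 22 °C. Pex16 leads the peroxins at 22 °C and at 6 °C, and the lines of Acaa1a and Pecr turn down at 6 °C after their rise at 22 °C.

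The 3 peroxins that place proteins in the peroxisomal membrane all rose at 6 °C against 30 °C. Pex16, which brings Pex3 to the membrane and takes part in making new peroxisomes, lies on chromosome 2 from 92374676 to 92381217 (GRCm38, protein coding). It was at 36.76, 38.71, 34.13 and 33.52 CPM at 30 °C, at 91.49, 77.88, 86.1 and 81.59 at 22 °C, and at 102.8, 89.99, 102.8 and 94.43 at 6 °C. Every mouse at 22 °C and 6 °C was above every mouse at 30 °C, while the ranges at 22 °C and 6 °C overlapped. The log2 fold change was 1.24 from 30 to 22 °C (SE 0.08, adjusted p = 1.06e-06) and 0.21 from 22 to 6 °C (SE 0.07, adjusted p = 0.0438), and these steps differed by −1.03 (SE 0.13, adjusted p = 0.000259). The smaller step lost its call when any 1 of 6 libraries was left out (0.17 to 0.23). From 30 to 6 °C the change was 2.73-fold (adjusted p = 4.35e-08). Up to 7.16% of its exons lie under Large2 on the opposite strand.

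Pex19, the chaperone that carries new membrane proteins, rose at both steps. It was at 151, 162, 152.9 and 137 CPM at 30 °C, at 225.6, 234.6, 234.4 and 203.7 at 22 °C, and at 275.6, 279.7, 293.7 and 292.5 at 6 °C, and no ranges overlapped. Its log2 fold change from 30 to 6 °C was 0.92 (SE 0.07, adjusted p = 6.12e-07). Pex3, the membrane anchor on which Pex19 docks, went from 42.03 ± 2.181 CPM at 30 °C to 63.2 ± 0.8164 at 22 °C and 64.37 ± 9.413 at 6 °C. It rose at the first step (log2 fold change 0.59, SE 0.09, adjusted p = 0.000239), and from 22 to 6 °C the value was 0.03 (adjusted p = 0.842).

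The import receptors and the docking complex rose from 30 to 6 °C in 4 of 4 cases. Pex13, a docking protein on chromosome 11 from 23646479 to 23665959, was at 89.55, 98.6, 83.16 and 83.81 CPM at 30 °C. At 22 °C it was at 148.5, 151.1, 139 and 139 CPM, and at 6 °C at 176.5, 187.2, 210.8 and 197.9. The 3 groups were fully separated, in the order of falling temperature. Its log2 fold change was 0.70 at the first step (SE 0.08, adjusted p = 3.01e-05) and 0.42 at the second (SE 0.08, adjusted p = 0.00135), and the steps did not differ past the threshold (−0.28, adjusted p = 0.126).

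Pex14, its partner and the docking site of loaded receptors, was separated between the groups as well: 25.59 ± 4.661 CPM at 30 °C, 43.49 ± 2.447 at 22 °C and 56.42 ± 4.273 at 6 °C. The log2 fold change from 30 to 6 °C was 1.14 (SE 0.11, adjusted p = 3e-06), and 28.3% of its exon bases lie under Gm17029 on the opposite strand, whose reads cannot be told from its own without strand. Pex7, the receptor for the N-terminal targeting signal that the thiolases carry, went from 39.25 ± 4.269 to 57.03 ± 4.952 and 69.2 ± 5.174 CPM. It rose at both steps, though the second (0.28, adjusted p = 0.0312) was not called when any 1 of 4 libraries was left out. Pex5, the receptor for the C-terminal signal of most matrix enzymes, moved less, from 113.3 ± 18.32 to 136.9 ± 10.47 and 159.7 ± 12.96 CPM. It passed between 30 and 6 °C (0.50, SE 0.11, adjusted p = 0.00177) and at neither single step (adjusted p = 0.0557 and 0.131). Under total counts its 30 to 6 °C value was 0.17 (adjusted p = 0.22).

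A different course was seen in the peroxins that recycle the receptors. Pex10, a RING ubiquitin ligase that marks Pex5 for release, was at 20.8, 16.48, 19.27 and 15.66 CPM at 30 °C, at 19.25, 22.24, 23.55 and 21.64 at 22 °C, and at 14.78, 14.84, 16.24 and 15.74 at 6 °C. All 4 mice at 6 °C lay below all 4 at 22 °C, and the 30 °C mice overlapped both groups. The log2 fold change was −0.49 from 22 to 6 °C (SE 0.10, adjusted p = 0.00259). The rise before it was slight (0.26, adjusted p = 0.0452) and was not called when any 1 of 9 libraries was left out. The end points, 30 and 6 °C, did not differ past the threshold (−0.23, adjusted p = 0.066). They did under upper-quartile scaling (−0.30, adjusted p = 0.0225) and total counts (−0.55, adjusted p = 0.00032), with a filter of 1 CPM in 4 libraries (−0.24, adjusted p = 0.049) and without 30 °C mouse B (−0.29, adjusted p = 0.0269).

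Pex6, the ATPase that pulls spent receptors out of the membrane, followed the same outline at a higher level. It was at 192.7 ± 18.11 CPM at 30 °C, 261.1 ± 27.79 at 22 °C and 211.1 ± 7.595 at 6 °C, and the mice at 22 °C were above all others. It rose by 0.44 (SE 0.09, adjusted p = 0.00159) and fell by 0.31 (SE 0.09, adjusted p = 0.0188), and the steps differed by −0.75 (adjusted p = 0.00359). The fall was not called when any 1 of 3 libraries was left out. Pex2, the other RING ligase of this list, rose to 22 °C (0.38, adjusted p = 0.0109) and was at −0.22 at the next step (adjusted p = 0.125). Pex26, which anchors Pex6 in the membrane, passed in no comparison, with 14.4 ± 1.483, 16.74 ± 2.555 and 14.81 ± 2.172 CPM. Thus from 30 to 6 °C 0 of these 4 genes were called by edgeR, with log2 fold changes of 0.16 for Pex2, 0.13 for Pex6, −0.23 for Pex10 and 0.04 for Pex26. At an unadjusted p under 0.05 in edgeR there was 1, Pex10, and DESeq2 called 0 of these 4 as well.

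Pex11a and Pex11g, which bend the membrane before a peroxisome divides, parted company. Pex11a, the form known to respond to PPAR ligands, went from 58.55 ± 6.816 to 91.76 ± 17.38 and 103.4 ± 5.754 CPM and rose from 30 to 6 °C by 0.82 (SE 0.12, adjusted p = 0.000103). Pex11g was at 14.65 ± 1.117, 18.42 ± 0.4138 and 15.74 ± 1.946 CPM, so that it rose at 22 °C (0.33, adjusted p = 0.0121) and was at 0.10 from 30 to 6 °C (adjusted p = 0.357). Per length, the ratio of Pex11a to Pex11g was 4.27 ± 0.377 at 30 °C, 5.31 ± 0.893 at 22 °C and 7.08 ± 0.83 at 6 °C. The mice at 6 °C (5.93 to 7.78) were all above those at 30 °C (3.81 to 4.70). The ratio is uncertain because 41.1% of the exon bases of Pex11g lie under Gm44775 on the opposite strand.

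The machinery that peroxisomes share with mitochondria for scission, Dnm1l, Fis1 and Mff, rose in 3 of 3 tested genes from 30 to 6 °C, by 0.32, 0.41 and 0.63 on the log2 scale. At the first step 3 of 3 passed (0.39, 0.30 and 0.47). At the second, the values were −0.07, 0.11 and 0.16, none past the threshold (adjusted p = 0.558, 0.261 and 0.176). The steps themselves differed past the threshold for Dnm1l (−0.45, adjusted p = 0.0293) and not for Fis1 or Mff (−0.19, adjusted p = 0.291, and −0.31, adjusted p = 0.133).

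The ABC transporters that admit acyl-CoA to the peroxisome moved in opposite directions at 6 °C. Abcd3, an abundant membrane protein that takes in branched and dicarboxylic acyl-CoA, lies on chromosome 3 from 121758774 to 121815302. It was at 198.3, 219.1, 197 and 164.8 CPM at 30 °C, at 424.6, 371, 371.6 and 332.8 at 22 °C, and at 538.5, 554.3, 641.5 and 537.4 at 6 °C. No mouse of 1 temperature reached the range of another. From 30 to 6 °C its log2 fold change was 1.54 (SE 0.10, adjusted p = 1.97e-07), a 2.92-fold rise, with 0.94 at the first step and 0.60 at the second.

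Abcd2, a carrier of very long and polyunsaturated acyl-CoA on chromosome 15 from 91145871 to 91191799, was at 162.4, 118.2, 95.68 and 92.88 CPM at 30 °C. It was at 118.5, 115.6, 256.3 and 134.6 CPM at 22 °C and at 41.69, 52.12, 46.89 and 54.19 at 6 °C. Every mouse at 6 °C lay below every other mouse, and 22 °C mouse 3 lay far above its group. The gene fell by 1.68 from 22 to 6 °C (SE 0.27, adjusted p = 0.00101) and by 1.27 from 30 to 6 °C (SE 0.27, adjusted p = 0.00203). From 30 to 22 °C the value was 0.42 (adjusted p = 0.226), and it was 0.06 without 22 °C mouse 3.

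Per length, Abcd2 stood at 0.667 ± 0.164 of the level of Abcd3 at 30 °C, at 0.467 ± 0.207 at 22 °C and at 0.0958 ± 0.0147 at 6 °C. The mice at 6 °C had ratios of 0.0811 to 0.112, below the lowest of the other mice, 0.31 at 22 °C. Abcd2 thus made up 35% to 47.6% of the pair in the 30 °C mice and 7.5% to 10.1% in the 6 °C mice.

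**Figure D3:**
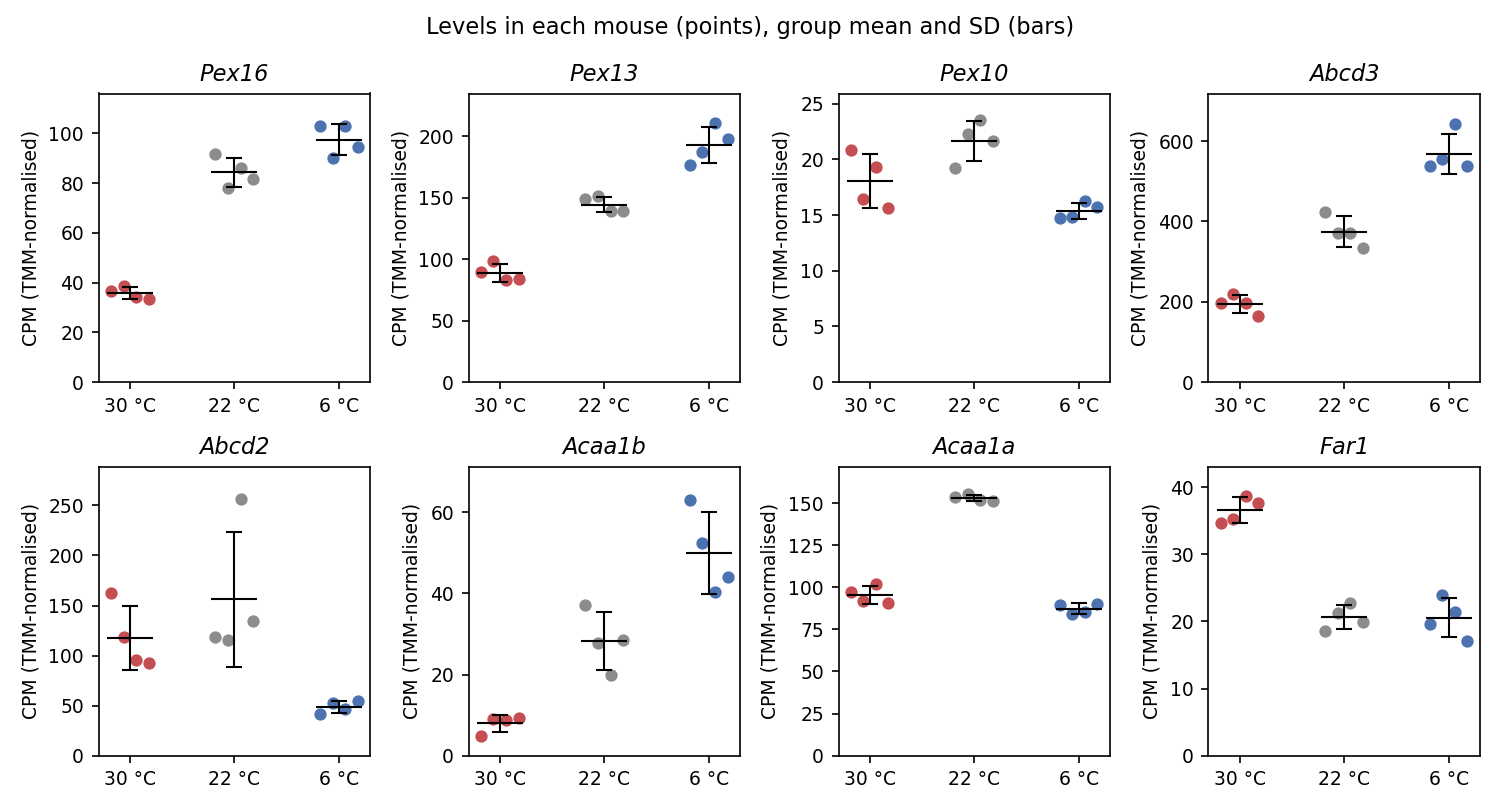
Level (CPM, TMM-normalised) of 8 genes in each mouse (points), with the group mean and SD (bars), at 30, 22 and 6 °C. Pex16, Pex13, Abcd3 and Acaa1b are higher at 22 °C and at 6 °C than in any mouse at 30 °C, Acaa1a is highest at 22 °C, Abcd2 is lowest at 6 °C, and Far1 is highest at 30 °C.

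In the core of β-oxidation 6 of 7 genes rose from 30 to 6 °C and the seventh, Acaa1a, did not pass. Acox2 and Acox3 are the oxidases for branched chains and bile acid intermediates. Acox2 was scarce, at 0.9487, 0.4421, 0.5094 and 0.6616 CPM at 30 °C, at 1.089, 1.193, 1.462 and 0.4838 at 22 °C, and at 3.654, 3.677, 4.813 and 5.404 at 6 °C. The mice at 6 °C stood clear of the rest, and those at 30 and 22 °C overlapped. Its log2 fold change was 2.76 from 30 to 6 °C (SE 0.32, adjusted p = 1.19e-05) and 2.01 from 22 to 6 °C (SE 0.30, adjusted p = 0.000394), the largest values of the 31 genes in those comparisons. Per length it remained the lowest of the 31 genes, at 0.548 RPKM (CPM per kilobase of exon) over 12 libraries.

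Acox3 was at 63.33 ± 0.8833, 67.58 ± 3.54 and 73.07 ± 1.503 CPM. It rose from 30 to 6 °C by 0.21 (SE 0.06, adjusted p = 0.00695), a direction that turned to −0.11 under total counts (adjusted p = 0.145). Per length Acox2 was at 0.0315 ± 0.0113 of Acox3 at 30 °C and 0.187 ± 0.0405 at 6 °C.

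The bifunctional enzymes, which hydrate and then oxidise the chain, are Ehhadh for straight chains and dicarboxylic acids and Hsd17b4 for branched ones. Ehhadh varied widely between mice, at 115.6, 139.6, 68.35 and 107.5 CPM at 30 °C, at 111, 164.3, 222.1 and 161.1 at 22 °C, and at 338.3, 187.1, 329.2 and 139.6 at 6 °C. A single 6 °C mouse, mouse 4, was no higher than the highest at 30 °C. It rose from 30 to 6 °C (1.21, SE 0.32, adjusted p = 0.00858), but with mice A and B left out it did not pass (0.97, adjusted p = 0.085). Hsd17b4 was far tighter, with 247 ± 30.16, 359.7 ± 20.99 and 520.9 ± 33.18 CPM and no overlap of ranges. It rose in nearly equal steps, by 0.54 (SE 0.09) and 0.53 (SE 0.09), which differed by −0.01 (adjusted p = 0.976).

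The thiolases that close the cycle took different courses at the colder step. Acaa1a, on chromosome 9 from 119339676 to 119350299, was at 97.28, 92.05, 102.2 and 90.42 CPM at 30 °C, at 153.7, 155.2, 152 and 151 at 22 °C, and at 89.64, 84.14, 85.25 and 90.34 at 6 °C. The mice at 22 °C lay within a narrow band above all others. It rose by 0.68 (SE 0.06, adjusted p = 8.57e-06) and then fell by 0.81 (SE 0.06, adjusted p = 4.45e-06), and the steps differed by −1.49 (SE 0.10, adjusted p = 6.68e-06). From 30 to 6 °C the value was −0.13 (adjusted p = 0.0794). That comparison passed under upper-quartile scaling (−0.19, adjusted p = 0.0113) and total counts (−0.44, adjusted p = 4.7e-05), with a filter of 1 CPM in 4 libraries (−0.14, adjusted p = 0.0439) and without 30 °C mouse B (−0.16, adjusted p = 0.0494).

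Acaa1b, on the same chromosome from 119148023 to 119157093 and on the opposite strand, was at 4.913, 8.923, 8.78 and 9.263 CPM at 30 °C. It was at 37.16, 27.67, 19.81 and 28.5 CPM at 22 °C and at 62.97, 52.35, 40.27 and 44.02 at 6 °C. The groups did not overlap, and they rose in the order of the cold, where those of Acaa1a turned back. Its log2 fold change was 1.82 from 30 to 22 °C (SE 0.24, adjusted p = 0.000132) and 0.82 from 22 to 6 °C (SE 0.22, adjusted p = 0.0152), a 6.26-fold rise from 30 to 6 °C (adjusted p = 4.08e-06).

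Per length, the ratio of Acaa1b to Acaa1a was 0.189 ± 0.0525 at 30 °C, 0.416 ± 0.103 at 22 °C and 1.28 ± 0.249 at 6 °C. Acaa1b made up 51.5% to 61.2% of the pair in the 6 °C mice and 10.2% to 18.7% in the 30 °C mice. Summed, the pair came to 99.7 to 111 CPM at 30 °C, 171.8 to 190.9 at 22 °C and 125.5 to 152.6 at 6 °C, so the sum was higher in every mouse at 22 °C than in any other mouse. Sequence is shared between them: 30.5% of the runs of 50 bases in Acaa1b transcripts also lie in Acaa1a, and 12.4% of those in Acaa1a lie in Acaa1b, so part of either count may come from the other gene. Scp2, whose longer product is the thiolase for branched chains, was at 224.4 ± 21.56, 333.3 ± 23.41 and 394.6 ± 23.55 CPM. It rose at both steps (0.57, adjusted p = 0.000208, and 0.24, adjusted p = 0.0415), the second of which was not called when any 1 of 8 libraries was left out. Of its runs of 50 bases 29.7% are shared with the pseudogene Scp2-ps2.

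The carnitine acyltransferases, which hand shortened chains on for export to mitochondria, both rose. Crat, carnitine acetyltransferase, which also works in mitochondria, went from 456.9, 541.8, 558.7 and 474.9 CPM at 30 °C to 933.4, 844.6, 846.4 and 927.4 at 22 °C and 1020, 1036, 1089 and 1082 at 6 °C. The groups were separate and the first step was the larger (0.81 against 0.25, difference −0.55, SE 0.14, adjusted p = 0.0113). Crot, the octanoyl enzyme, went from 61.14 ± 7.848 to 74.19 ± 4.502 and 78.07 ± 5.615 CPM and rose from 30 to 6 °C by 0.35 (SE 0.09, adjusted p = 0.00547). Under total counts that value was 0.04 (adjusted p = 0.7).

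Of the enzymes for methyl-branched and unsaturated chains, Hacl1 and Amacr rose and Phyh and Pecr fell from 30 to 6 °C. Phyh, the hydroxylase that opens phytanic acid oxidation, had the highest level per length of the 31 genes (374 RPKM over 12 libraries). It was at 835.4, 824.6, 760.6 and 589.5 CPM at 30 °C, at 739.2, 869.9, 713.8 and 742.7 at 22 °C, and at 572.6, 598.8, 658.8 and 590.2 at 6 °C. The mice at 6 °C were below those at 22 °C, but 30 °C mouse B was as low as they were. The fall from 30 to 6 °C was 0.31 (SE 0.11, adjusted p = 0.027), and it was not called when any 1 of 6 libraries was left out or under RLE scaling (−0.26, adjusted p = 0.0652).

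Hacl1, the lyase that removes the single carbon after hydroxylation, went the other way, from 32.92 ± 3.272 to 63.35 ± 5.102 and 71.13 ± 4.683 CPM. It rose by 1.11 from 30 to 6 °C (SE 0.09, adjusted p = 5.62e-07), nearly all of it at the first step (0.95). Of its exon bases 31.1% also belong to Gm49387 on the same strand. Amacr, the racemase that turns branched chains into the form the oxidases accept, went from 25.81 ± 4.4 to 40.12 ± 2.198 and 49.65 ± 1.375 CPM, without overlap (0.94 from 30 to 6 °C, SE 0.10, adjusted p = 8.73e-06).

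Pecr, a reductase of unsaturated chains, was at 31.34, 26.81, 23.43 and 17.86 CPM at 30 °C, at 36.96, 36.61, 32.98 and 30.09 at 22 °C, and at 16.97, 17.85, 19.96 and 18.52 at 6 °C. As with Acaa1a, the mice at 22 °C were above those at 6 °C without overlap. It rose by 0.46 (adjusted p = 0.0165) and fell by 0.90 (SE 0.14, adjusted p = 0.000498). The fall of 0.44 from 30 to 6 °C (adjusted p = 0.0168) was not called without 30 °C mouse 1 (−0.31, adjusted p = 0.0557) or with only the 8 libraries compared (−0.39, adjusted p = 0.0509).

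In ether lipid synthesis Far1 stood apart from the other 30 genes at 22 °C, as the only one that fell. Far1, which makes the fatty alcohol and is held to set the rate of plasmalogen synthesis, lies on chromosome 7 from 113513834 to 113571511. It was at 34.63, 35.21, 38.75 and 37.71 CPM at 30 °C, at 18.65, 21.29, 22.74 and 19.88 at 22 °C, and at 19.69, 23.97, 21.37 and 17.05 at 6 °C. All 8 mice at the colder temperatures were below all 4 at 30 °C. The fall was 0.82 at the first step (SE 0.10, adjusted p = 5.83e-05), the second step was −0.01 (adjusted p = 0.957), and the steps differed by 0.81 (adjusted p = 0.00472).

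Gnpat and Agps, which carry out the first reactions of ether lipid synthesis inside the peroxisome, changed little. Gnpat was at 354 ± 31.59, 412.9 ± 22.97 and 374.5 ± 23.16 CPM, and passed at the first step (0.22, adjusted p = 0.042) and not from 30 to 6 °C (0.08, adjusted p = 0.412), where total counts gave −0.23. The first step was not called when any 1 of 7 libraries was left out. Agps was at 41.45 ± 1.505, 40.05 ± 2.817 and 50.96 ± 3.249 CPM and rose at 6 °C against 30 °C (0.30, SE 0.07, adjusted p = 0.0028), where total counts gave −0.02. It rose at the second step (0.35, adjusted p = 0.00253), with −0.05 at the first (adjusted p = 0.609).

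Set side by side, peroxins and enzymes had about the same mean course over mice. The mean log2 CPM of the 13 peroxins was 5.56 ± 0.095 at 30 °C, 6.10 ± 0.055 at 22 °C and 6.15 ± 0.047 at 6 °C. For the 18 enzymes and transporters it was 6.09 ± 0.101, 6.58 ± 0.072 and 6.71 ± 0.049. In both lists every mouse at 22 °C or 6 °C was above every mouse at 30 °C. In 30 °C mice 1, 2, A and B the mean was 5.58, 5.65, 5.59 and 5.43 for peroxins and 6.19, 6.14, 6.08 and 5.96 for enzymes. Summed macrophage markers in these mice were 463.7, 480.4, 1253 and 1549 CPM. Their summed skeletal muscle markers were 3735, 697, 749.5 and 1146 CPM. The part of these other cells in the list means was not tested. The enzymes exceeded the peroxins by 0.53 ± 0.058 at 30 °C, 0.49 ± 0.092 at 22 °C and 0.56 ± 0.03 at 6 °C, and the ranges of this difference overlapped between temperatures. A mean over CPM weighs genes of different length alike, and Acox2, the only member with a mean under 5 CPM, counts in it as much as others. Without Acox2 the enzymes exceeded the peroxins by 0.92, 0.87 and 0.83, so the gap was smallest at 6 °C and not largest there, and the mean of the enzymes differed by 0.012 between 6 and 22 °C in place of 0.13. With total counts the means differed between 6 and 30 °C by 0.269 for peroxins and 0.301 for enzymes, in place of 0.59 and 0.62.

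From 30 to 6 °C the log2 fold changes ran from −0.23 to 1.45 for peroxins and from −1.27 to 2.76 for enzymes and transporters. A 2-fold change was reached by 3 called peroxins, all higher, and by 8 called enzymes and transporters, of which 7 were higher and Abcd2 lower. Of the 14870 tested genes 871 were called at least 2-fold higher and 1845 lower. In that comparison 4 of 18 enzymes and transporters and 0 of 13 peroxins fell, against 31.5% of all tested genes. No test of a difference between the lists was made. The falls among all 31 genes came to 2 without 30 °C mouse 1 and to 6 without 30 °C mouse B, and in the second case, as under upper-quartile scaling, total counts and the filter of 1 CPM, the peroxin Pex10 was among them. Per length, the 4 highest of the 31 genes were Phyh, Crat, Hsd17b4 and Gnpat (374, 151.7, 110.4 and 106.1 RPKM), all enzymes, and the highest peroxins were Pex6 and Pex19 (58.38 and 57.72). The lowest peroxin was Pex26 at 2.703 RPKM.

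**Figure D4:**
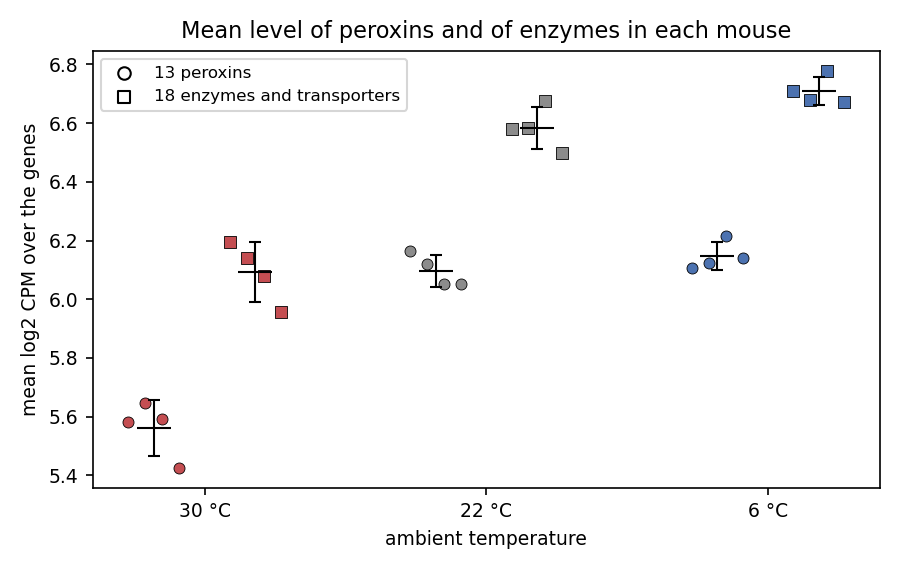
Mean log2 CPM over the 13 peroxins (circles) and over the 18 enzymes and transporters (squares) in each mouse, with the group mean and SD (bars), at 30, 22 and 6 °C. Both lists are higher at 22 °C and 6 °C than in any mouse at 30 °C, and the gap between their means is 0.53 at 30 °C and 0.56 at 6 °C.

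Further peroxisomal enzymes and membrane proteins, were 54 listed genes of which 44 were tested. From 30 to 6 °C 30 of the 44 rose and 5 fell, with a median of 0.69, against 25.3% and 31.5% of all tested genes. At 22 °C against 30 °C 29 rose and 1 fell, against 21.8% and 22.8%, and at 6 °C against 22 °C 19 rose and 8 fell, against 16.9% and 17.4%. The highest were Acot12 and Acot4, thioesterases that free fatty acids from acyl-CoA, with Vwa8, an ATPase, and Slc25a17, a carrier of cofactors in the peroxisomal membrane. Their log2 fold changes from 30 to 6 °C were 5.62 (SE 0.47), 2.05 (SE 0.34), 2.21 (SE 0.12) and 1.71 (SE 0.10), and Acot12 started from 0.0865 ± 0.0644 CPM. The lowest were Nos2 (−1.85, SE 0.17), a nitric oxide synthase also made by macrophages, Eci3 (−1.74, SE 0.17), an enoyl-CoA isomerase, Pxmp2 (−0.90, SE 0.12), a channel protein, and Gstk1 (−0.45, SE 0.08), a glutathione transferase. Pxmp2 rose at 22 °C (0.56, adjusted p = 0.00236) before it fell by 1.46 at 6 °C (adjusted p = 9.09e-06), the course of Acaa1a and Pecr.

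Of 9 regulators, 5 rose and 0 fell from 30 to 6 °C, against 25.3% and 31.5% of all tested genes. The share called in either direction, 55.6%, was near that of all tested genes, 56.8%. At 22 °C against 30 °C 2 of the 9 rose and 0 fell, and the share called was 22.2%, beside 44.6% of all tested genes. Ppargc1a, a coactivator of oxidative genes, went from 38.47 ± 10.09 to 46.26 ± 13.03 and 87.68 ± 17.84 CPM (1.19 from 30 to 6 °C, SE 0.23, adjusted p = 0.00104), and its rise passed at the second step and not at the first (0.92, adjusted p = 0.00987, and 0.27, adjusted p = 0.361), a difference that did not pass (0.65, adjusted p = 0.248). Ppard, a nuclear receptor for fatty acids, rose from 30 to 6 °C by 0.83 (SE 0.09, adjusted p = 1.14e-05), at 26.53 ± 1.407, 31.01 ± 2.192 and 47.03 ± 6.33 CPM. Rxra and Rxrb, the partners of the PPAR receptors, rose by 0.43 and 0.31, and Prdm16, a determinant of brown fat identity, by 0.67. Ppara, the receptor best known for peroxisome proliferation in rodent liver, was at 152.6 ± 35.69, 124 ± 33.18 and 175 ± 60.05 CPM and did not pass (0.20, adjusted p = 0.568). Pparg (0.07), Ppargc1b (0.50) and Tfeb (0.10) did not pass from 30 to 6 °C either (adjusted p = 0.724, 0.111 and 0.492).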

How the data were processed

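RNA sequencing libraries of interscapular brown fat from 12 mice were analysed. The values deposited by the authors are raw read counts per gene (Ensembl identifiers) in a single table, not normalised. The submitters' processing notes list edgeR 3.14.0, STAR 2.4.2a and FastQC 0.10.1, with GRCm38 and mm10 as builds, and do not say what each tool did. How reads were counted, on which annotation release and with which strand setting is not given in the sources used here. The labels name 1 mouse per sample, and p-values measure the spread between these mice. Column names matched a numbered mouse for 10 libraries, and 2 columns were given to 30 °C by letter only (mice A and B). GENCODE M21 held 96.6% of the identifiers, and 27 symbols that had turned into dates were restored.

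The tests used edgeR 4.0.16 (R 4.3.3) on the counts: filterByExpr, TMM (factors 0.87 to 1.23), 1 factor of 3 temperatures over all 12 libraries, robust glmQLFit, two-sided glmQLFTest, and Benjamini-Hochberg adjustment over 14870 genes. Log2 CPM used a prior count of 2. SE was computed as the absolute log2 fold change over the root of F. RPKM used GENCODE exon lengths. No pair of libraries in a group was alike within sampling noise (lowest chi-square per degree of freedom 22.8). The model was tested on simulated data.

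The 31 genes, the other lists and the markers were chosen with earlier results of these data known. All 31 genes and all 9 regulators are named, and from the other lists the other peroxins and the 4 highest and 4 lowest called changes from 30 to 6 °C with a mean of at least 1 CPM. The scission genes, which fall outside that rule, were named after their values were seen. Some genes the rule would name are not reported here. The alternatives were 3 other scalings (RLE, upper quartile, total counts), 2 other filters, DESeq2 1.42.0, voom of limma 3.58.1, no robust estimation, a replicate block, leaving out libraries, only the 8 libraries compared, and stricter thresholds.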

Additional observations from a re-analysis of the deposited data

Results flagged for a closer look

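In each group of 4 mice the highest or lowest CPM of a gene was marked where its gap to the nearest mouse took more of the range of the group than Dixon's 95% limit for 4 values allows. Over the 31 genes and 3 temperatures this gave 5 of 93 groups, and chance marks about 1 in 20. Abcd2 in 22 °C mouse 3 stood at 256.3 CPM, where the other mice of the group reached 134.6. That library was the deepest, and its code lay outside the run of the others. The same mouse was highest for Crot, at 80.91 CPM. Acaa1b was lowest in 30 °C mouse 1, at 4.913 CPM, the mouse with the highest summed skeletal muscle markers (3735 CPM). Abcd3 was highest in 6 °C mouse 3, at 641.5 CPM, the mouse with the lowest summed skeletal muscle markers (6.476 CPM). Gnpat was lowest in 30 °C mouse B, at 306.8 CPM, the mouse with the highest summed macrophage markers (1549 CPM). The part of library depth and of other cells in these values was not tested.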

How the results depend on the processing

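The counts of members called held within 1.5 times under most alternatives. With a 2-fold threshold they were 11 at 6 against 30 °C and 2 at 22 against 30 °C. They were 2 at 6 against 22 °C and 4 for the difference of steps. Over all tested genes the counts at that threshold were 2716, 1870, 1326 and 2193 in the same order. With an adjusted p under 0.01 the members called in the last pair were 10 and 8, beside 2803 and 2236 of all tested genes. Leaving out 1 library gave 22 to 26, 20 to 24, 12 to 19 and 10 to 15 members called, with 12 at 6 against 22 °C without 22 °C mouse 4. Same-numbered mice did not deviate together (r from −0.152 to 0.23 over 8 pairs), so the numbers are not taken as pairs. A fit with the replicate block on the 10 matched libraries called 22, 17, 17 and 6 members, against 23, 17, 19 and 11 without the block on the same libraries. Over all tested genes these fits called 5683, 3245, 4817 and 2468 with the block and 6570, 4454, 5316 and 3376 without it. Total counts without scaling factors turned Acox3 (−0.11), Gnpat (−0.23) and Agps (−0.018) below 0 at 6 against 30 °C and Acox3 (−0.17), Phyh (−0.23) and Gnpat (−0.035) at 22 against 30 °C. That scaling also gave smaller changes of the list means: 0.275 for peroxins and 0.231 for enzymes at 22 against 30 °C, 0.269 and 0.301 at 6 against 30 °C, and −0.006 for peroxins at 6 against 22 °C. With members of at least 5 CPM the enzymes exceeded the peroxins by 0.923, 0.869 and 0.832 at 30, 22 and 6 °C, and their change was 0.495 at 6 against 30 °C and 0.012 at 6 against 22 °C, since Acox2 then left the mean. The other causes were not tested. No single gene changed its call with limma voom or without robust estimation. Depth limits Acox2 most, at 0.641 CPM in the 30 °C mice.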
